A study of Mus musculus with 6 samples.

Results

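The genes of antigen presentation by the major histocompatibility complex (MHC) were taken from the table of raw counts as every row whose symbol starts with H2-, except H2-Ke6, together with Ciita, Cd74, B2m, Tap1, Tap2, Tapbp, Psmb8, Psmb9 and March1. The rule gave 52 of the 24062 symbols in the table. Of these, 38 belong to class I, 12 to class II, 1 (March1) acts on class II protein, and 1 (H2-Ke2) lies in the H2 region but encodes a prefoldin subunit and is no MHC gene. Class I here counts the heavy chain genes with B2m and the peptide supply genes, and class II counts the chains with Cd74, H2-DM, H2-DO and Ciita. Pseudogenes are counted too. The annotation used gives H2-K2 of class I as a pseudogene. It gives H2-Q5, H2-T10 and H2-Bl of class I and H2-Ea-ps of class II as polymorphic pseudogenes. Bulk RNA was sequenced from aortic arch plaque of atherosclerosis-prone mice on C57BL/6, 3 libraries from animals given vehicle and 3 from animals given ABT263. All mice, vehicle and ABT263 alike, shared this background and were kept on TD88137, rich in fat, during 12 weeks and then on low-fat food during 3 weeks. ABT263 (navitoclax), an inhibitor of antiapoptotic BCL-2 family proteins, was injected intraperitoneally at 100 mg/kg, 1 dose daily, in week 1 of low-fat food; the labels do not say for how many days. They give no age or sex, and do not say whether each library came from its own animal, so that the p-values below measure the spread between these libraries, which may in part be technical.

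MHC class I molecules, a heavy chain joined to beta-2-microglobulin, are made by nearly all nucleated cells and show peptides from the cytosol to CD8 T cells. Class II molecules, an alpha chain paired with a beta chain, are made mainly by dendritic cells, B cells and activated macrophages, and show peptides from endosomes to CD4 T cells. Transcription of class II genes depends on CIITA, which is recruited by factors bound to the X and Y boxes of their promoters, and interferon-gamma induces CIITA in macrophages and many other cells. In plaque, class II protein is known from macrophages, dendritic cells and, under interferon-gamma, smooth muscle cells.

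Promoters of 6 members are printed because class I and class II promoters differ in the regulatory letters they are known for. The sequences are those of RefSeq on GRCm38.p6, the 180 bases before the annotated start, 5′ to 3′ on the gene's strand. They lie at chr17:34287824-34288003 (minus strand) for H2-Aa, chr17:34305687-34305866 (plus) for H2-Eb1, chr17:34325495-34325674 (plus) for H2-Eb2, chr17:34145069-34145248 (plus) for H2-DMb2, chr17:34000348-34000527 (minus) for H2-K1 and chr17:35262914-35263093 (plus) for H2-D1. Capitals mark every match, on either strand, to 5 motifs: the Y box core GATTGG, an X box core ACNGATG, the cyclic AMP response element TGACGTCA, the interferon response core TTTCACTT and the kB core GGGGATTCC. No marked match overlaps another in these stretches.
H2-Aa: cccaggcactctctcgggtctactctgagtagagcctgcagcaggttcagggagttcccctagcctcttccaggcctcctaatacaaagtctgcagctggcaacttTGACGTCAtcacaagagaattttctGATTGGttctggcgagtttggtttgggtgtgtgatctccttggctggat
H2-Eb1: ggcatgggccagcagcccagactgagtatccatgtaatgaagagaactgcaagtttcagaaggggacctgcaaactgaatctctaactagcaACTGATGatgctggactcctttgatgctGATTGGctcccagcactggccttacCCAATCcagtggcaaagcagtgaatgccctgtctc
H2-Eb2: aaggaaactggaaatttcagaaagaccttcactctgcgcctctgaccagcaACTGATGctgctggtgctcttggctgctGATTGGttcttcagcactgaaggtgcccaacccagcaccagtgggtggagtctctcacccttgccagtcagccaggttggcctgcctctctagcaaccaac
H2-DMb2: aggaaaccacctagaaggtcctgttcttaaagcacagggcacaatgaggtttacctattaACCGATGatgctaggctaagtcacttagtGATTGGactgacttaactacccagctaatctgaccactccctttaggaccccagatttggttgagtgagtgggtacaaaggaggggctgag
H2-K1: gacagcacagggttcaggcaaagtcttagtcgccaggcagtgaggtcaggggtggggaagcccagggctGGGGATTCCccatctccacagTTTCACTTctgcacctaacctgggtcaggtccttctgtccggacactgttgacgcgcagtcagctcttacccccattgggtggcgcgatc
H2-D1: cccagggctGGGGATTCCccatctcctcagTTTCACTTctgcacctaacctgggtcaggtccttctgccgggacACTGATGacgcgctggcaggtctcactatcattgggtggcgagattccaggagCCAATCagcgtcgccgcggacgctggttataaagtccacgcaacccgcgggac
The 4 class II stretches each hold a Y box core, and 3 of them hold an X box core upstream of it; the 2 class I stretches hold a kB core followed by an interferon response core. The H2-D1 stretch also holds an X box core and a Y box core.

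Windows of 250 bases before to 50 bases after the start were at hand for 36 of the 52 members, 8 of them class II genes and 14 class I genes that passed the filter on low counts described below. A gene was counted if any of its windows held the motif, and H2-K1 had more than 1 window. The percentages beside the counts are of windows, not of genes. A Y box core was found for 8 of the 8 class II and 8 of the 14 class I genes, against 16.1% of all 32851 promoter windows. The X box core was found for 6 of 8 and 5 of 14 genes, against 9.85% of windows. The cyclic AMP response element was in the H2-Aa window, in no other of these class II or class I windows, and in 1.79% of all windows. The other motifs were found for none of the 8 class II genes. The interferon response core was found for 6 of 14 class I genes (H2-D1, H2-K1, H2-M3, H2-Q10, H2-Q4 and H2-T22), against 1.6% of all windows. The kB core was found for 2 of 14 (H2-D1 and H2-K1), against 0.25%. A match is a string of letters, not a measured binding site.

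Library totals ran from 62930547 to 110452098 counts, and 15222 genes passed the filter. Macrophage and smooth muscle markers were present in all 6 libraries: the summed level of 9 macrophage markers ran from 3451 to 14402 CPM (counts relative to the library total, after scaling by TMM) and that of 6 smooth muscle markers from 2204 to 14823 CPM. The smooth muscle sum was 2424, 2759 and 3346 CPM in the vehicle libraries and 2204, 14823 and 9042 CPM in those of ABT263, so ABT263 replicates 2 and 3 stood above the rest. All 6 of its genes had positive fold changes (median log2 fold change 1.85), opposite in sign to most members, and the part of smooth muscle content in the members' values was not tested. Vehicle replicate 2 had the lowest summed level of 5 endothelial markers, 323 CPM against 1509 to 4328 CPM elsewhere, and ABT263 replicate 2 had 2632 CPM of 5 adipocyte markers against 1.22 to 3.59 CPM. Vehicle replicate 2 also held most of the class II reads, so results are given with and without it. Airway markers summed to between 15.3 and 81.0 CPM, with Sftpc at 0 in some libraries, and thymocyte markers to between 27.6 and 164 CPM.

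Of the 52 members, 34 passed the filter on low counts: 21 of class I, 11 of class II, March1 and H2-Ke2. Another 12 had no read in any library, where a count of 0 allows 3 counts, or between 0.0278 and 0.0480 CPM depending on the library (a limit for counting error only). These were H2-Ea-ps of class II and H2-Q6, H2-Q7, H2-Q8, H2-Q9, H2-T9, H2-M1, H2-M10.1, H2-M10.3, H2-M10.4, H2-M10.5 and H2-M10.6 of class I. H2-Ea-ps encodes the alpha chain of the I-E molecule and is known to be silent in C57BL/6 mice through a promoter deletion, so the read counts of H2-Eb1 and H2-Eb2, which encode E beta chains, have no matching alpha chain here. The absence of reads for H2-Q6 and H2-Q7 cannot be read as absence of RNA. Of the 50-base stretches of their annotated transcripts, 32.0% and 26.4% also occur in other genes. How the counting treated such reads is not given in the sources used here. H2-Q8, H2-Q9 and H2-T9 were not matched to the annotation, so their shared sequence was not measured. Their lack of reads cannot be read as absence of RNA either. The remaining 6 (H2-Bl, H2-T3, H2-M10.2, H2-M11, H2-M9 and H2-M5) had few reads, at most 53 in a library.

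No member and no other gene was called by edgeR's quasi-likelihood test at an adjusted p under 0.05, which is 0% of the 15222 genes tested. The smallest adjusted p over all genes was 0.592, and those of the 34 members ran from 0.592 to 0.990. At an unadjusted edgeR p under 0.05, 1276 genes passed. Of the members, 16 of 34 were among the genes lower with ABT263 at that unadjusted p, against 3.68% of all genes tested, and none was among those higher, against 4.70%. These were the class II genes other than Ciita, together with H2-K2, H2-D1, H2-T23, H2-T24, H2-M2 and March1. A negative fold change (ABT263 over vehicle) was found in 30 of 34 members, against 49.9% of all genes. The 3 ABT263 libraries lay below the 3 vehicle libraries for 11 members, against 6.31% of genes, and above them for none, against 5.68%. Of the 34 members, 29 had their highest level in vehicle replicate 2, as did 30.0% of all genes. DESeq2 called 84 genes lower, 0.582% of those it gave an adjusted p, and 4 were members: March1 (adjusted p = 0.00156), H2-DMb2 (0.00975), H2-Ob (0.0383) and H2-M2 (0.0404). limma-voom called none, with 855 genes at an unadjusted p under 0.05.

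Leaving out vehicle replicate 2, 31 of 34 members had a negative fold change, against 45.8% of all genes in that refit. The ABT263 libraries lay below both remaining vehicle libraries for 11 members, against 14.2% of genes. Leaving out a vehicle library cannot undo such a separation, so this count could not fall. Those lower at an unadjusted edgeR p under 0.05 numbered 6 (H2-DMb2, H2-Ob, H2-T24, H2-T23, H2-M2 and March1), against 3.96% of genes. The median log2 fold change of the 34 members was -1.28 with all libraries and -0.44 without vehicle replicate 2, against 0.0008 and 0.034 over the genes tested.

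The class II chains are the genes that encode the peptide-binding molecules themselves. H2-Aa, the alpha chain of I-A (chr17:34282744-34287823), stood at 230, 6373 and 847 CPM in the vehicle libraries, named in the order of replicates 1 to 3 here and below, and at 272, 370 and 337 CPM in the ABT263 libraries. Vehicle replicate 2 was far above all other libraries, vehicle replicate 3 was next, and vehicle replicate 1 was below every ABT263 library, so the groups overlapped. The log2 fold change was -2.93 (SE 1.14, edgeR adjusted p = 0.592) and -0.72 (SE 0.55) without vehicle replicate 2. H2-Ab1, the beta chain of I-A (chr17:34257689-34269419), stood at 193, 4579 and 712 CPM with vehicle and at 253.9, 316 and 275 CPM with ABT263. H2-Eb1, the E beta chain (chr17:34305867-34316674), stood at 165, 5187 and 651 CPM and at 187, 298 and 261 CPM. Both showed the same order of groups as H2-Aa, with vehicle replicate 1 lowest of all, and their log2 fold changes were -2.70 (SE 1.07) and -3.01 (SE 1.18). Without vehicle replicate 2 these came to -0.68 and -0.71.

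Relative to H2-Aa the other abundant class II genes held steady ratios between libraries. H2-Ab1 reads were 0.836, 0.719 and 0.840 of H2-Aa reads in the vehicle libraries and 0.932, 0.853 and 0.816 in those of ABT263. H2-Eb1 reads were 0.717, 0.814 and 0.768 of H2-Aa reads with vehicle and 0.687, 0.806 and 0.775 with ABT263. The highest library exceeded the lowest by 1.30 times for the first ratio and 1.19 times for the second, while the summed class II level of the 11 genes differed 25.0 times between libraries. H2-Eb2, a second E beta gene beside H2-Eb1, was scarce, at 0.416, 3.64 and 2.62 CPM with vehicle and at 0.062, 0.208 and 0.533 CPM with ABT263. Its groups overlapped through vehicle replicate 1 and ABT263 replicate 3. Its log2 fold change was -3.06 (SE 1.05) and -2.51 (SE 1.14) without vehicle replicate 2.

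Cd74 encodes the invariant chain, which fills the class II groove and carries the molecule to endosomes. It stood at 537, 13491 and 1850 CPM with vehicle and at 757, 808 and 796 CPM with ABT263. The 3 ABT263 libraries were close together, between vehicle replicates 1 and 3. For Cd74 the log2 fold change was -2.75 (SE 1.12) and -0.60 (SE 0.53) without vehicle replicate 2. Cd74 reads were 2.12 to 2.33 times H2-Aa reads with vehicle and 2.18 to 2.78 times with ABT263, so the ranges overlapped. Per kilobase of exon, Cd74 was the highest member in the vehicle mean, 3152 CPM per kilobase, followed by B2m at 2800 and H2-Eb1 at 1029. In the ABT263 mean B2m led, at 1217 CPM per kilobase, with Cd74 at 469, H2-K1 at 227.4 and H2-D1 at 185, while H2-Eb1, H2-Ab1 and H2-Aa stood at 128, 110 and 86.0. These orders are of means, and within the vehicle group vehicle replicate 2 sets the class II means.

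Ciita, the coactivator that class II genes need (chr16:10480059-10528418), stood at 11.9, 157 and 43.9 CPM with vehicle and at 9.95, 17.9 and 22.5 CPM with ABT263. It had the same high library as the class II chains, and its groups overlapped through vehicle replicate 1. For Ciita the log2 fold change was -2.08 (SE 0.87) and -0.74 (SE 0.62) without vehicle replicate 2. Per 100 reads of H2-Aa there were 5.16, 2.47 and 5.18 reads of Ciita with vehicle and 3.65, 4.82 and 6.68 with ABT263. Vehicle replicate 2 was thus the library with the fewest Ciita reads per H2-Aa read, although it had the most Ciita reads. Ciita exons overlap those of Dexi, and the library kit does not mark the strand, so its counts may include reads of that neighbour.

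H2-DM, a class II relative that stays in endosomes, removes the invariant chain remnant and edits the bound peptide; its subunits are H2-DMa with H2-DMb1 or H2-DMb2. H2-DMa stood at 27.4, 413 and 52.8 CPM with vehicle and at 31.1, 34.3 and 23.1 CPM with ABT263. H2-DMb1 stood at 58.7, 471 and 80.8 CPM with vehicle and at 56.6, 46.8 and 48.5 CPM with ABT263. For H2-DMb1 each vehicle library was above each ABT263 library, the closest pair being vehicle replicate 1 and ABT263 replicate 1, whereas the H2-DMa groups overlapped. H2-DMa exons overlap those of Brd2, and 22.7% of the 50-base stretches of H2-DMb1 occur in H2-DMb2, so both counts are uncertain to that extent. Log2 fold changes were -2.48 (SE 0.99) for H2-DMa and -2.01 (SE 0.79) for H2-DMb1, and -0.45 and -0.46 without vehicle replicate 2.

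The second beta gene did not follow the first in size. H2-DMb2 stood at 2.78, 10.3 and 7.08 CPM with vehicle and at 0.816, 1.42 and 1.68 CPM with ABT263, and the groups did not overlap. For H2-DMb2 the log2 fold change was -2.36 (SE 0.56) and remained -1.92 (SE 0.54) without vehicle replicate 2. Per 100 reads of H2-DMb1 there were 4.75, 2.18 and 8.76 of H2-DMb2 with vehicle and 1.44, 3.04 and 3.47 with ABT263, ranges that overlapped. The copies share sequence: 24.8% of the 50-base stretches of H2-DMb2 occur in other genes, most of them in H2-DMb1, so reads could be exchanged or lost between them.

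H2-DO, a dimer of H2-Oa and H2-Ob found chiefly in B cells, inhibits H2-DM. H2-Ob stood at 2.64, 17.5 and 12.1 CPM with vehicle and at 0.806, 2.36 and 2.26 CPM with ABT263. All vehicle libraries were above all ABT263 libraries, with a narrow gap below vehicle replicate 1. Its log2 fold change was -2.57 (SE 0.76) and -2.03 (SE 0.78) without vehicle replicate 2. H2-Oa stood at 0.768, 8.21 and 2.81 CPM with vehicle and at 0.114, 0.637 and 0.884 CPM with ABT263, and ABT263 replicate 3 was above vehicle replicate 1. The log2 fold change of H2-Oa was -2.86 (SE 1.06) and -1.72 (SE 0.98) without vehicle replicate 2. H2-Oa exons overlap those of BC051537.

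Without vehicle replicate 2 the class II genes fell into separate ranges of fold change, by value and not by a test of the difference. H2-Aa, H2-Ab1, H2-Eb1, Cd74, H2-DMa, H2-DMb1 and Ciita lay between -0.74 and -0.45 on the log2 scale, while H2-Oa, H2-DMb2, H2-Ob and H2-Eb2 lay between -2.51 and -1.72. The genes of the second range also had the lowest mean levels of the class II genes kept, from 1.25 CPM (H2-Eb2) to 6.27 CPM (H2-Ob). Ciita was next, at 43.9 CPM. The part of low read counts in this split was not tested. Levels of 7 B cell markers were set beside the genes of the second range. None of the 7 was highest in vehicle replicate 2, unlike H2-Oa, H2-DMb2, H2-Ob and H2-Eb2. The sum of the B cell markers was 183, 108 and 187 CPM with vehicle and 31.0, 47.2 and 85.1 CPM with ABT263, without overlap of the groups. It was lowest of the vehicle group in vehicle replicate 2. Most of that sum is Cd22, at 162, 72.9 and 110 CPM with vehicle and at 26.4, 33.6 and 75.8 CPM with ABT263. The groups overlapped for Cd22. All 7 markers had negative fold changes, their median log2 fold change being -2.23, or -2.44 without vehicle replicate 2. For 5 of the 7 the groups did not overlap, with ABT263 lower, against 6.31% of all genes. Cd79a, part of the B cell receptor, stood at 5.71, 9.80 and 23.97 CPM with vehicle and at 1.498, 3.32 and 2.12 CPM with ABT263. The part of B cell number in the H2-Ob, H2-Oa, H2-DMb2 and H2-Eb2 values was not tested, and in bulk RNA fewer cells of a type and less RNA per cell cannot be told apart.

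**Figure D1:**
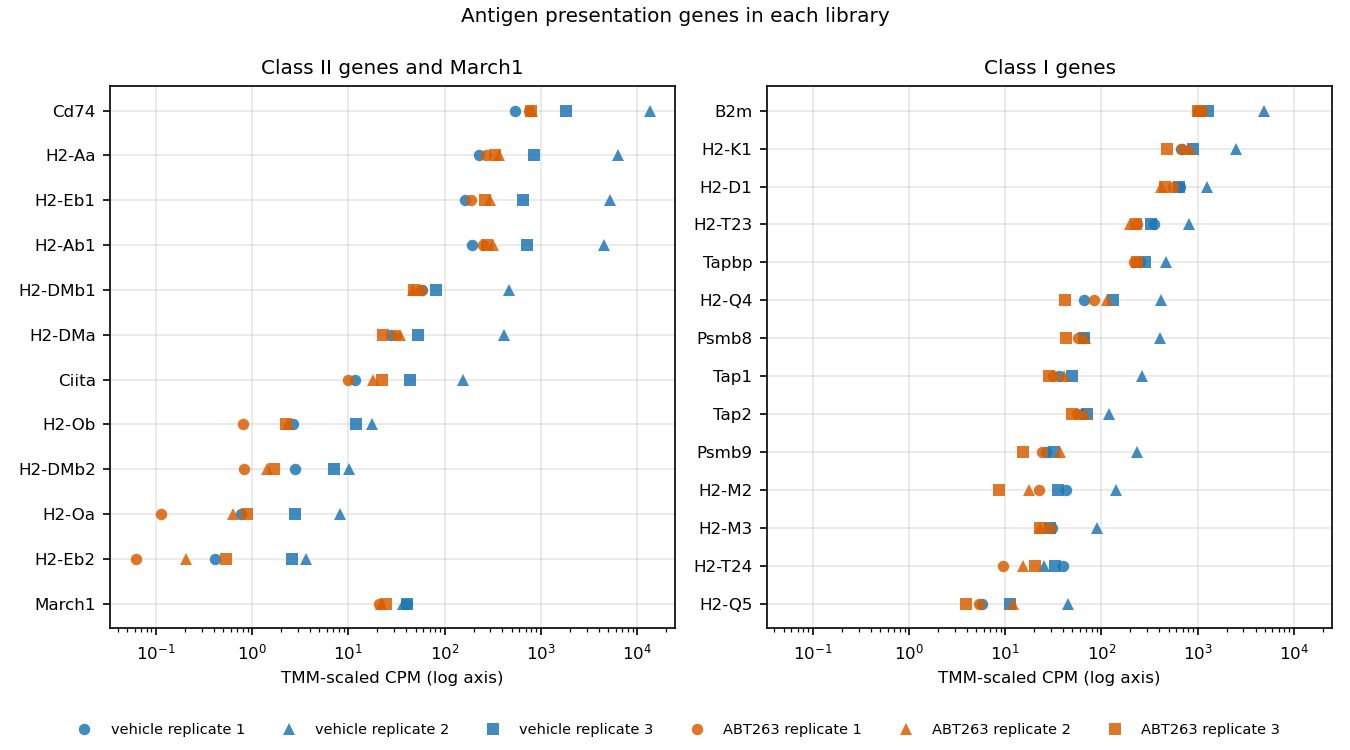
Level of each antigen presentation gene described by name in each of the 6 libraries, in TMM-scaled CPM on a log axis. Blue points are vehicle and orange points ABT263, with the shape giving the replicate. Vehicle replicate 2 (blue triangles) lies to the right for H2-Aa at 6373 CPM and for most other genes, but not for March1 or H2-T24.

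March1 encodes a membrane ubiquitin ligase that marks class II molecules and CD86 for removal from the surface of dendritic cells and B cells (chr8:65617900-66471637). It stood at 40.8, 37.4 and 40.3 CPM with vehicle and at 20.9, 21.7 and 24.7 CPM with ABT263. Vehicle replicate 2 was the lowest of the 3 vehicle libraries, the groups did not overlap, and the gap between them was larger than the range within either. The means were 39.5 ± 1.87 CPM (SD, n = 3) and 22.4 ± 1.98 CPM (SD, n = 3). The log2 fold change of March1 was -0.82 (SE 0.15), with an adjusted edgeR p of 0.592. Without vehicle replicate 2 it was -0.86 (SE 0.13), and leaving out each library in turn gave -0.89 to -0.77. March1 reads per 100 reads of H2-Aa came to 17.7, 0.586 and 4.76 under vehicle and to 7.69, 5.86 and 7.32 with ABT263. Vehicle replicate 2 held the lowest of these ratios and vehicle replicate 1 the highest. March1 exons overlap those of Gm15354, so its counts are uncertain to that extent.

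The classical class I heavy chains are H2-K1 and H2-D1, which present peptides to CD8 T cells. H2-K1 (chr17:33996017-34000347) stood at 676, 2535 and 900 CPM with vehicle and at 695, 825 and 484 CPM with ABT263. H2-D1 (chr17:35262730-35267499) stood at 659, 1258 and 646 CPM with vehicle and at 561, 416 and 456 CPM with ABT263. The groups overlapped for H2-K1 through ABT263 replicates 1 and 2, and did not overlap for H2-D1. Log2 fold changes were -1.04 (SE 0.55) for H2-K1 and -0.84 (SE 0.35) for H2-D1, and -0.24 and -0.45 without vehicle replicate 2. The ratio of H2-K1 to H2-D1 reads was 1.03, 2.02 and 1.39 with vehicle and 1.24, 1.98 and 1.06 with ABT263, so it was highest in replicate 2 of each group and showed no separation of the groups. Of their 50-base stretches, 9.6% and 12.8% occur in other genes.

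B2m, the light chain that all these heavy chains need (chr2:122147686-122153083), stood at 1013, 4923 and 1289 CPM with vehicle and at 1123, 1003 and 1014 CPM with ABT263. Outside vehicle replicate 2 the 5 libraries were within a narrow range, and the ABT263 values overlapped vehicle replicate 1. For B2m the log2 fold change was -1.20 (SE 0.64) and -0.14 (SE 0.24) without vehicle replicate 2. B2m reads were 0.759, 1.30 and 0.834 of the summed H2-K1 and H2-D1 reads with vehicle and 0.894, 0.808 and 1.08 with ABT263.

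Genes of peptide supply were high in vehicle replicate 2 to unequal degrees. Tap1 and Tap2 encode the subunits of the peptide transporter of the endoplasmic reticulum. Tap1 stood at 36.0, 263 and 49.3 CPM with vehicle and at 31.3, 41.1 and 28.6 CPM with ABT263. Tap2 stood at 62.4, 120 and 70.9 CPM with vehicle and at 55.7, 67.4 and 49.0 CPM with ABT263. For both genes ABT263 replicate 2 was above vehicle replicate 1, so the groups overlapped. Psmb8 and Psmb9, catalytic subunits of the immunoproteasome that cuts peptides for class I, behaved like Tap1 in vehicle replicate 2. Psmb8 stood at 64.6, 410 and 66.5 CPM with vehicle and at 57.6, 67.9 and 43.0 CPM with ABT263. Psmb9 stood at 26.7, 236 and 32.4 CPM with vehicle and at 24.03, 37.6 and 15.5 CPM with ABT263. In both cases ABT263 replicate 2 was above vehicle replicates 1 and 3. Tapbp, the chaperone tapasin that holds class I at the transporter, stood at 252, 466 and 286 CPM with vehicle and at 220, 237 and 232 CPM with ABT263. It was the only gene of these 5, or of the 6 with B2m, whose groups did not overlap.

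Log2 fold changes of the peptide supply genes were -1.79 (SE 0.76) for Tap1, -0.56 (SE 0.29) for Tap2, -1.68 (SE 0.76) for Psmb8, -1.94 (SE 0.89) for Psmb9 and -0.54 (SE 0.28) for Tapbp. Without vehicle replicate 2 they came to -0.35, -0.22, -0.23, -0.20 and -0.23. None had an unadjusted edgeR p under 0.05 in either fit. Psmb9 and Tap1 lie head to head and share exon bases, so their counts are uncertain where they overlap. The same holds for Tapbp, whose exons overlap those of Zbtb22 and Gm19412. Psmb8 exons overlap those of Gm20496, and Tap2 exons those of Gm15821 and Gm20496.

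Of the other class I heavy chain genes and pseudogenes, the 6 of highest mean level are described in turn. H2-T23, which encodes Qa-1 and presents leader peptides to NK cell and T cell receptors, stood at 353, 813 and 332 CPM with vehicle and at 233, 199 and 232 CPM with ABT263. The groups did not overlap with or without vehicle replicate 2. Its log2 fold change was -1.17 (SE 0.39) and -0.63 (SE 0.17) without vehicle replicate 2. H2-M3, which presents formylated bacterial peptides, stood at 30.8, 89.3 and 29.4 CPM with vehicle and at 29.4, 23.1 and 22.9 CPM with ABT263. Its groups did not overlap only by a small margin between vehicle replicate 3 and ABT263 replicate 1. The log2 fold change of H2-M3 was -0.99 (SE 0.46) and -0.26 (SE 0.16) without vehicle replicate 2.

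H2-T24 and H2-M2, nonclassical heavy chain genes, kept a log2 fold change beyond -1 without vehicle replicate 2. H2-T24 stood at 39.5, 25.6 and 32.7 CPM with vehicle and at 9.57, 15.3 and 20.2 CPM with ABT263. Its highest library was vehicle replicate 1, vehicle replicate 2 was the lowest of the vehicle group, and the groups did not overlap. For H2-T24 the log2 fold change was -1.11 (SE 0.31) and -1.26 (SE 0.33) without vehicle replicate 2. H2-M2 stood at 43.2, 142 and 35.5 CPM with vehicle and at 22.4, 17.7 and 8.67 CPM with ABT263, again without overlap. H2-M2 had a log2 fold change of -2.18 (SE 0.63), the most negative of the 21 class I genes, and of -1.28 (SE 0.40) without vehicle replicate 2.

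The Q region genes overlapped between groups. H2-Q4 stood at 66.4, 415 and 131 CPM with vehicle and at 83.8, 114 and 42.0 CPM with ABT263. H2-Q5 stood at 5.81, 45.4 and 11.3 CPM with vehicle and at 5.30, 12.2 and 3.96 CPM with ABT263. Both were highest in vehicle replicate 2, and ABT263 replicate 2 was above vehicle replicate 1 for each. Log2 fold changes were -1.36 (SE 0.71) for H2-Q4 and -1.54 (SE 0.82) for H2-Q5, and -0.31 and -0.26 without vehicle replicate 2. Other genes hold 21.8% of the 50-base stretches of H2-Q4 and 36.4% of those of H2-Q5, so these counts are uncertain. The other 7 class I genes kept by the filter were H2-K2, H2-T10 and H2-L, with log2 fold changes of -1.03, -1.11 and -0.96 (-0.43, -0.32 and -0.45 without vehicle replicate 2), and H2-Q1, H2-Q2, H2-Q10 and H2-T22, with 0.13, 0.12, 0.55 and 0.46 (-0.15, -0.27, 0.40 and 1.92 without it). The last 4 are the only members with a positive fold change over all 6 libraries. Their levels were low, from 0.0146 to 4.60 CPM over the 6 libraries. Of the 50-base stretches of H2-T22 and H2-T10, 34.5% and 32.9% occur in other genes, most of them in each other. Reads could thus be exchanged or lost between these copies, and H2-T22 had 79 reads in all against 5513 for H2-T10. H2-Q1, H2-Q2 and H2-Q10 also share such stretches with other genes, so the counts of these 5 genes are uncertain. H2-Q1, H2-Q2 and H2-Q10 had their highest level in ABT263 replicate 2. That library was also highest for the adipocyte, smooth muscle, thymocyte and airway marker sums. Of its airway sum of 81.0 CPM, Krt8 gave 33.7 and Krt18 34.9 CPM. Scgb1a1 stood there at 12.2 CPM, below vehicle replicates 2 and 3 (13.5 and 12.5 CPM), and Sftpc was at 0. Of its thymocyte sum of 164 CPM, Rag1 gave 69.6 and Cd1d1 55.0 CPM. The part of any such cells in the values was not tested.

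Class for class, the 11 class II genes had a median log2 fold change of -2.70 (range -3.06 to -2.01) and the 21 class I genes one of -1.04 (range -2.18 to 0.55). Without vehicle replicate 2 the medians were -0.72 and -0.26. With limma-voom and all 6 libraries they were -1.58 and -0.90. All 11 class II genes and 17 of the 21 class I genes had a negative fold change, and 11 and 17 were highest in vehicle replicate 2. At an unadjusted edgeR p under 0.05, 10 of 11 class II and 5 of 21 class I genes were lower, against 3.68% of all genes, and without that library 2 of 11 and 3 of 21 were, against 3.96%. The groups did not overlap, with ABT263 lower, for 3 of 11 class II genes (H2-DMb1, H2-DMb2 and H2-Ob) and for 7 of 21 class I genes (Tapbp, H2-K2, H2-D1, H2-T24, H2-T23, H2-M3 and H2-M2), against 6.31% of all genes. Without vehicle replicate 2 these counts were again 3 and 7, against 14.2%. Leaving out a vehicle library can only keep or raise such counts, so that they did not fall was fixed beforehand. For H2-Aa, H2-Ab1, H2-Eb1 and Cd74, vehicle replicate 1 was below all 3 ABT263 libraries.

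**Figure D2:**
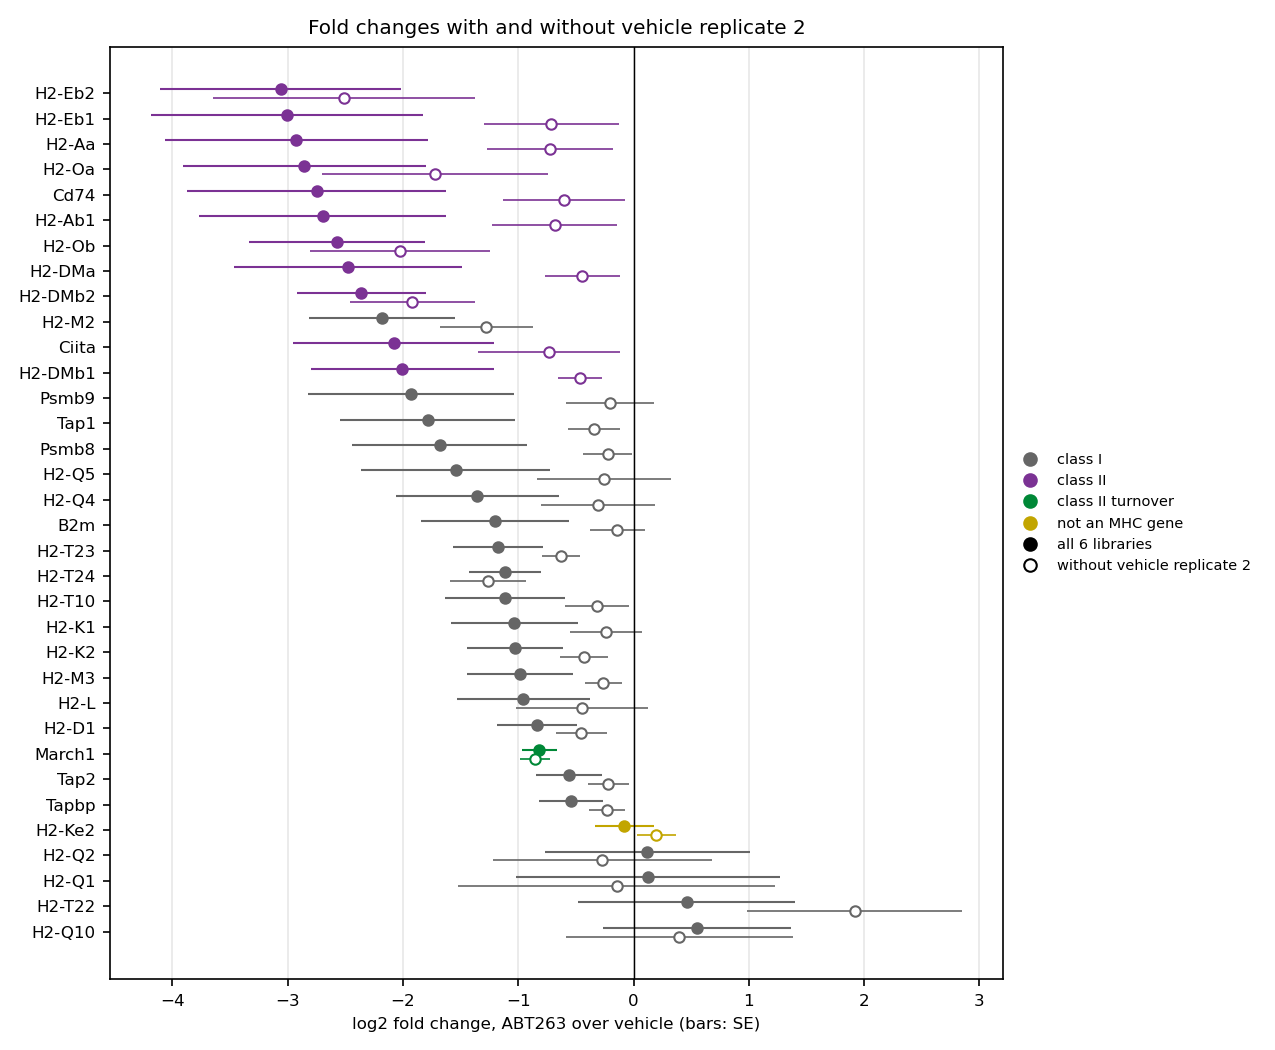
Log2 fold change (ABT263 over vehicle, horizontal axis) with its SE for the 34 members that passed the filter, with all 6 libraries (filled) and without vehicle replicate 2 (open), ordered by the first and coloured by class. Most open points lie nearer 0 than the filled ones, as for H2-Aa, which moves from -2.93 to -0.72, while March1 moves from -0.82 to -0.86.

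Each library was then described by what its class I and class II genes held together. The 11 class II genes took 0.114%, 3.00% and 0.428% of all counts under vehicle, by replicate, and 0.166%, 0.203% and 0.171% under ABT263. The Wilson 95% intervals, which cover counting error only, were narrow: 0.113 to 0.115% in vehicle replicate 1 and 2.99 to 3.00% in vehicle replicate 2. The 21 class I genes took 0.311%, 1.15% and 0.395% with vehicle and 0.334%, 0.332% and 0.258% with ABT263, with intervals of 0.310 to 0.313% in vehicle replicate 1 and 0.257 to 0.259% in ABT263 replicate 3. The spread within the vehicle group was thus far above counting error for both classes. Between ABT263 libraries the class II share differed little, and the 3 values lay between those of vehicle replicates 1 and 3. As mean ± SD, the class II share was 1.18 ± 1.58% (n = 3) with vehicle and 0.180 ± 0.0201% (n = 3) with ABT263, and the class I share 0.619 ± 0.462% (n = 3) and 0.308 ± 0.0433% (n = 3).

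The ratio of class II to class I counts was 0.367, 2.60 and 1.08 under vehicle, again by replicate, and 0.496, 0.612 and 0.664 under ABT263. Class II reads outnumbered class I reads in vehicle replicates 2 and 3 only, and vehicle replicate 1 had the lowest ratio of the 6 libraries. On the log scale, with each gene weighted alike, mean log2 CPM of class II minus that of class I was -0.16, 2.25 and 1.59 with vehicle and -0.37, -0.11 and 0.75 with ABT263. This difference also overlapped between groups, through vehicle replicate 1. Its group means were 1.23 ± 1.24 (SD, n = 3) and 0.089 ± 0.59 (SD, n = 3), a gap of -1.14, which came to -0.63 without vehicle replicate 2. The spread between vehicle libraries was larger than this gap.

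**Figure D3:**
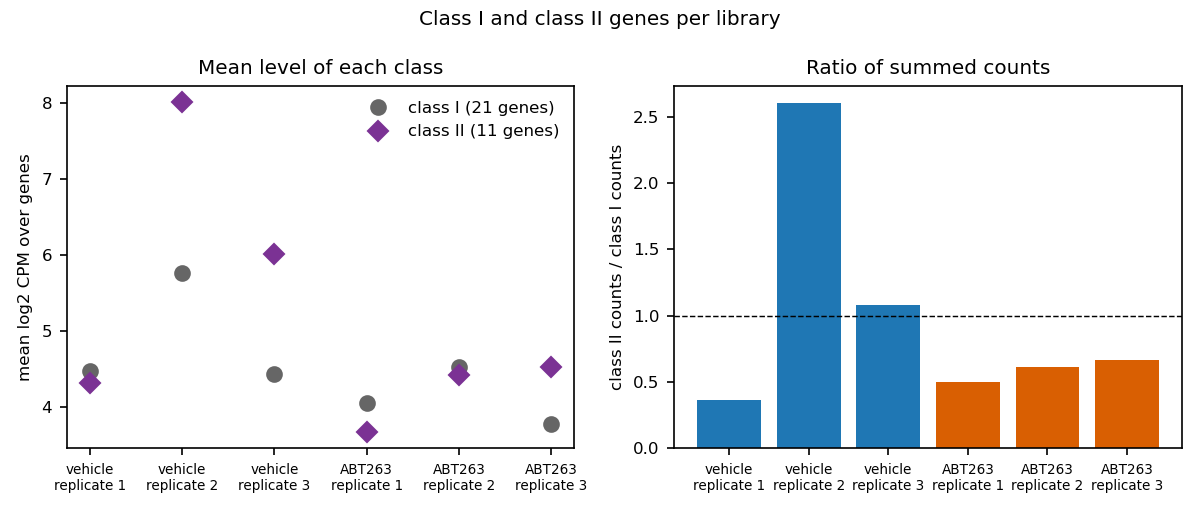
Left, mean log2 CPM over the 21 class I genes (grey circles) and the 11 class II genes (purple diamonds) in each library. Right, the ratio of summed class II to summed class I counts, with a dashed line at 1; bars rise above it in vehicle replicate 2 (2.60) and vehicle replicate 3 (1.08) only.

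Other genes of the pathway came from a list of 41 that includes transcription factors, interferon-gamma signalling, peptide trimming, endosomal proteases and coreceptors, all of which passed the filter. Fold changes were negative for 33 and positive for 8, and the median log2 fold change was -0.44, or -0.24 without vehicle replicate 2. None was called by edgeR, 4 were lower and none higher at an unadjusted edgeR p under 0.05 (3.68% of all genes were lower), and 6 lay lower without overlap of the groups (6.31% of all genes). Irf8, a transcription factor of dendritic cells, B cells and macrophages, stood at 156, 310 and 135 CPM with vehicle and at 78.1, 53.8 and 90.7 CPM with ABT263 (log2 fold change -1.43, SE 0.38). Irf2, which binds interferon response elements, stood at 44.9, 46.6 and 48.8 CPM with vehicle and at 37.5, 33.2 and 32.9 CPM with ABT263 (log2 fold change -0.44, SE 0.15). For both genes the groups did not overlap. Cd83, a surface protein that opposes MARCH1 and keeps class II on the surface, stood at 115, 167 and 74.8 CPM with vehicle and at 71.0, 31.3 and 58.8 CPM with ABT263 (log2 fold change -1.15, SE 0.40). Nlrc5, the class I counterpart of CIITA, stood at 28.3, 150 and 35.8 CPM with vehicle and at 21, 28.3 and 18.3 CPM with ABT263. Vehicle replicate 1 and ABT263 replicate 2 nearly met for Nlrc5, whose log2 fold change was -1.66 (SE 0.65) and -0.51 without vehicle replicate 2.

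Markers of cells and of interferon response were set beside the classes in each library. Of 8 interferon-gamma response genes, 8 were highest in vehicle replicate 2, and their summed level was 92.4, 1683 and 133 CPM with vehicle and 120, 210 and 106 CPM with ABT263. All 8 had negative fold changes, the median being -1.75 on the log2 scale, or 0.26 without vehicle replicate 2. The sum of 9 genes of the general interferon response was 104, 831 and 142 CPM with vehicle and 223, 235 and 81.1 CPM with ABT263. Ifng itself stood at 0.128, 5.28 and 0.366 CPM with vehicle and at 0.0207, 0.297 and 0.0281 CPM with ABT263. Vehicle replicate 2 was highest for 7 of the 9 general interferon genes; Isg15 was highest in ABT263 replicate 1 and Rsad2 in ABT263 replicate 2. It was also highest for Ifng and for the class I and class II sums. The part of interferon response in the class I and class II values was not tested.

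Macrophage markers followed another order. Their sum was 11637, 14402 and 7278 CPM with vehicle and 7060, 3451 and 6610 CPM with ABT263. The groups did not overlap only by a small margin between vehicle replicate 3 and ABT263 replicate 1. All 9 had a negative fold change, with Itgam at -0.02 on the log2 scale. For 5 of the 9 the groups did not overlap, against 6.31% of all genes, and for Cd68, Lgals3, Mrc1 and Itgam they did. Vehicle replicates 1 and 2 were close in macrophage markers, yet class II counts per macrophage marker count were 0.106 and 2.13 in them. The same ratio was 0.586 in vehicle replicate 3 and 0.222, 0.549 and 0.268 in ABT263 replicates 1 to 3. For class I it was 0.288, 0.819 and 0.540 with vehicle and 0.448, 0.898 and 0.403 with ABT263. Neither ratio separated the groups.

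Dendritic cell markers, 8 genes in all, summed to 807, 564 and 549 CPM with vehicle and to 465, 214 and 575 CPM with ABT263, and ABT263 replicate 3 was above vehicle replicates 2 and 3. Most of that sum is Itgax, which macrophages also express. Xcr1, a chemokine receptor that marks cross-presenting dendritic cells, stood at 0.224, 7.90 and 1.92 CPM with vehicle and at 0.165, 0.993 and 0.463 CPM with ABT263. It was highest in the library that was highest for class II, as was Clec9a, but the other 6 markers of the list were not. Fold changes were negative for 5 of the 8 (median log2 fold change -0.90) and positive for Zbtb46, Cd209a and Clec10a (0.30, 0.44 and 2.003 on the log2 scale). T cell markers, 7 genes, summed to 130, 161 and 163 CPM with vehicle and to 27.6, 112 and 54.2 CPM with ABT263, without overlap. The part of these cell types in the class I and class II values was not tested.

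**Figure D4:**
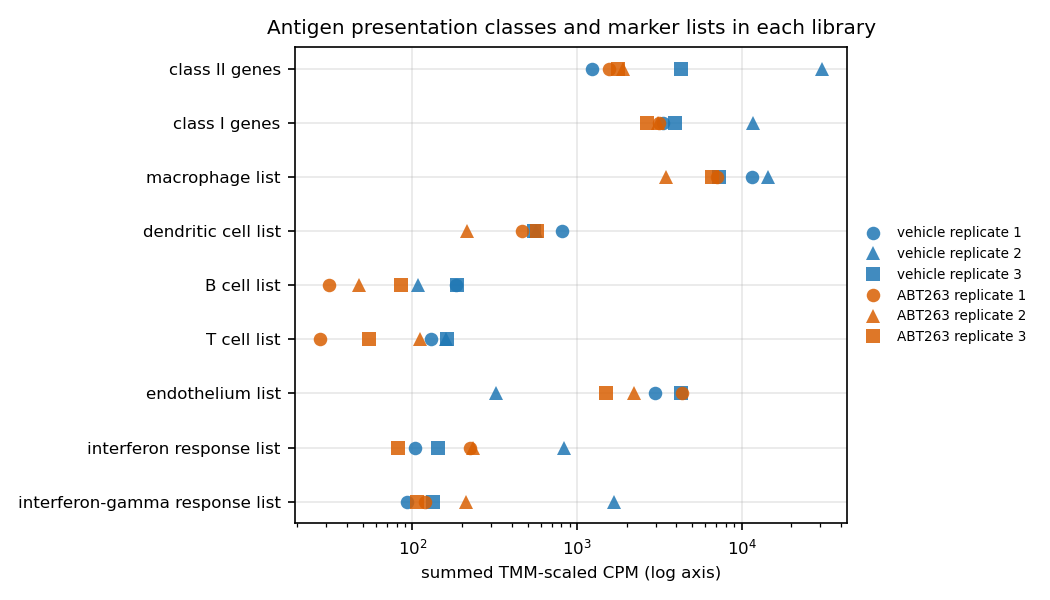
Summed TMM-scaled CPM (log axis) of the class II and class I genes and of 7 marker lists in each library, with blue for vehicle, orange for ABT263 and the shape for the replicate. Vehicle replicate 2 (blue triangle) is highest for class II, class I and both interferon lists, and lowest for endothelium at 323 CPM. The B cell sums of the groups do not overlap, and most of each is Cd22, whose groups overlap.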

How the data were processed

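RNA was extracted on RNeasy Micro columns and sequenced as TruSeq RNA v2 libraries, per the labels' protocols; the kit does not mark the strand. Raw counts were deposited, whole numbers without normalization. Per the submitters' processing notes, the tools included featureCounts 1.4.6, Subread, TopHat2 2.0.14 and Bowtie2 2.2.6, with mm10 as build. Not given in the sources used here: the annotation and the treatment of multi-mapping reads. Members and gene lists were chosen with earlier results of these data known.

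Low genes were removed with filterByExpr of edgeR 4.0.16 under R 4.3.3 (minimum count 10, minimum total 15) and the rest scaled by TMM. The quasi-likelihood F-test used the group alone (4 residual degrees of freedom) over all genes kept, with Benjamini-Hochberg adjustment and a threshold of 0.05, and was tested on simulated data. The SE was taken as the size of the log2 fold change over the root of its F value. Log2 CPM used a prior count of 2. The genotype that the groups share is not reported here. Replicate numbers follow accession order and pair nothing. DESeq2 1.42.0, limma-voom (limma 3.58.1), other scalings and filters, and fits without each library were run beside it. Genes kept were named by role: the class II genes, March1, the classical class I chains, peptide supply genes, the 6 other class I genes of highest mean level and the 4 pathway genes of smallest p. Cd79a, Xcr1 and Ifng, and the genes under other observations, were chosen after their values were seen. Of the members, 47 of 52 were matched by symbol to GENCODE M21 on GRCm38, the assembly mm10 denotes, and 13 of the kept ones share exon bases with another gene.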

Additional observations from a re-analysis of the deposited data

How the results depend on the processing

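Of 436 comparisons of a member's fold change with an alternative fit, 416 kept direction and side of the threshold, 4 passed it under DESeq2 (H2-DMb2, H2-Ob, H2-M2 and March1) and 16, in 5 members of low level or small fold change, turned direction. edgeR called 0 genes under each scaling, each filter and with each library left out, limma-voom with all libraries called 0, and DESeq2 called 153; the cause was not tested. Leaving out each library in turn, the class II median log2 fold change ran from -3.23 to -0.72, the class I median from -1.27 to -0.26 and the class II minus class I difference of mean log2 CPM from -1.83 to -0.63, the value nearest 0 being that without vehicle replicate 2 each time. With replicate 2 of both groups left out at once, the class II median was -0.82. H2-Ke2 (main -0.08) was 0.017 with library totals only, 0.16 without those 2 libraries and -0.22 to 0.20 with each library left out. The class medians were also taken with limma-voom and DESeq2, added after the data were seen: limma-voom gave -1.58 for class II and -0.90 for class I, with H2-Aa at -1.58, H2-Eb1 at -1.58 and Cd74 at -1.46, and DESeq2 gave -2.71 and -1.06. With limma-voom H2-Q1 was -0.070, H2-Q2 -0.19 and H2-Q10 -0.040; without the 2 libraries H2-Q2 was -1.70 and H2-Q10 -1.04. With each library left out H2-Q1 ran from -1.59 to 1.38, H2-Q2 from -1.30 to 0.58, H2-Q10 from -0.89 to 1.001 and H2-T22 from -0.050 to 1.92. Library totals alone moved the median of all genes to 0.092. Genes under about 1 CPM, such as H2-Eb2 and H2-Oa with ABT263, rest on few reads.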

Other observations

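Rfx5 and Nfyb, whose proteins bind class II promoters, had a narrower range between libraries than the class II chains. Rfx5, which binds the X box, stood at 13.8, 22.6 and 15.4 CPM in the vehicle libraries and at 14.6, 18.3 and 17.3 CPM in the ABT263 libraries. Nfyb, a subunit of the factor that binds the Y box, stood at 18.0, 15.3 and 19.0 CPM with vehicle and at 17.8, 15.9 and 14.2 CPM with ABT263. Both overlapped between groups, and vehicle replicate 2 was highest for Rfx5 and not for Nfyb.

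Of the endosomal proteases, cathepsin L did not share the high library of the class II genes, while cathepsin S was highest there by a small margin. Ctsl, cathepsin L, stood at 13680, 2738 and 7969 CPM with vehicle and at 3235, 3182 and 8323 CPM with ABT263, so vehicle replicate 2 was the lowest of all 6 libraries. Ctss, cathepsin S, which trims the invariant chain, stood at 4561, 4820 and 3280 CPM with vehicle and at 3134, 1165 and 3035 CPM with ABT263, and its groups did not overlap (log2 fold change -0.79, SE 0.48). H2-Ke2, the prefoldin subunit gene of the H2 region, stood at 22.98, 36.9 and 22.04 CPM with vehicle and at 28.7, 27.3 and 21.5 CPM with ABT263, a range of values that overlapped.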
